A study of Homo sapiens with 12 samples.

Results

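The HIF2 and hypoxia response genes are a set of 39 genes chosen by symbol, comprising the subunits of the hypoxia-inducible factors (HIF), the hydroxylases that sense oxygen and targets that respond to low oxygen. Each of the 39 was present among the 17085 genes of the count table, and 36 passed the filter on low counts, as did 12841 genes in all. FLT1, CXCR4 and NDUFA4L2 did not pass. The libraries are of bulk RNA from the human renal cancer line 786-O, recorded as wild type and treated for 24 h with DMSO as vehicle, everolimus (EVER, an inhibitor of mTOR), SGI-1027 (SGI, an inhibitor of DNA methyltransferases) or both drugs (COMB). Each of the 4 groups has 3 libraries. The treatment labels give 5 µM everolimus and 1.5 µM SGI-1027, alone or together, as do the study's methods, whereas the treatment protocol in the sample records gives 10 µM for everolimus alone. All cells were of one line, and no source says that replicates were grown as separate cultures, so the p-values measure the spread between these libraries, which may be technical.

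HIF is a dimer of an oxygen-regulated α subunit, HIF1α or HIF2α (encoded by EPAS1), and a constant β subunit, ARNT. In normal oxygen, prolyl hydroxylases (EGLN genes) mark the α subunits for degradation by the VHL ubiquitin ligase, and HIF1AN hydroxylates them so that they bind coactivators poorly. 786-O cells lack functional VHL and are known to make no functional HIF1α protein, so HIF2 is active in them without hypoxia, as it is in most clear cell renal carcinomas. RNA levels show neither HIF protein nor its activity. In bulk RNA, a change in RNA per cell and a change in which cells were present cannot be told apart. The paper reports that the drugs together, at the labelled doses, raised the release of lactate dehydrogenase, a sign of membrane damage, in this line. The rise came before the time at which RNA was taken and was not seen with either drug alone. The combination libraries may therefore include RNA of dying cells, and the part of cell death in their changes was not tested.

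HIF dimers bind the core motif RCGTG, that is ACGTG or GCGTG on either strand. The 250 bases before the most upstream annotated start were available in RefSeq (GRCh38.p14) for 30 of the 39 genes, and not for ARNT2, NDUFA4L2, LOXL2, VEGFA, NDRG1, SLC2A3, SPAG4, HILPDA and BNIP3L. A core was present in 22 of the 30 windows (73.3%), against 43.1% of 27305 genes, and ACGTG in 14 (46.7%), against 18.6%. The 27305 are all genes with a window, whether or not they were detected here, and the share among tested genes was not computed. Windows of 5 members follow, 5′ to 3′ on the strand of the gene, with each core in capitals (CACGT and CACGC are the motifs read on the other strand, and CACGTG counts on both): EPAS1 as the HIF2α gene itself (chr2:46297157-46297406, plus strand, 1 core), ANGPTL4 as the member with the largest rise (chr19:8363905-8364154, plus strand, 1 core), LOX as a member that rose with each treatment (chr5:122078260-122078509, minus strand, 4 cores), BNIP3 as a member that fell with each treatment (chr10:131981924-131982173, minus strand, 6 cores) and EGLN3 as the member with the largest fall (chr14:33951075-33951324, minus strand, 0 cores).
EPAS1: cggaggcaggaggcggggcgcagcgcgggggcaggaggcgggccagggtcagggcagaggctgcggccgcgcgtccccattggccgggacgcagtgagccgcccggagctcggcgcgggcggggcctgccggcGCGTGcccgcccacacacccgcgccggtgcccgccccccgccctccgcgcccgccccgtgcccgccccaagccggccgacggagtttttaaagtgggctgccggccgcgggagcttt
ANGPTL4: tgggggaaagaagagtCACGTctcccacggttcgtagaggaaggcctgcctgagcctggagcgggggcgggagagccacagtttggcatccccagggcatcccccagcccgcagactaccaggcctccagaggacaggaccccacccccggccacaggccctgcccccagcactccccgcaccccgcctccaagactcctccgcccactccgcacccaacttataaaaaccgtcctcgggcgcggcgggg
LOX: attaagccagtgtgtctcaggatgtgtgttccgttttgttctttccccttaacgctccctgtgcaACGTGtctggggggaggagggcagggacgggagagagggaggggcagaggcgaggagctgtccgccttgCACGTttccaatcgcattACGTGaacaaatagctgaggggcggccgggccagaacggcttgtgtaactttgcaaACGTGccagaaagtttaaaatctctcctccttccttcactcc
BNIP3: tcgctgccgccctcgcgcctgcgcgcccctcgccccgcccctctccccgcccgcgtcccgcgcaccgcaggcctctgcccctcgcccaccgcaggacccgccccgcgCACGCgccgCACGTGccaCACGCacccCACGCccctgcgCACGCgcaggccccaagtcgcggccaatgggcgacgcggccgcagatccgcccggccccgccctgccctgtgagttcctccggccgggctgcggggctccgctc
EGLN3: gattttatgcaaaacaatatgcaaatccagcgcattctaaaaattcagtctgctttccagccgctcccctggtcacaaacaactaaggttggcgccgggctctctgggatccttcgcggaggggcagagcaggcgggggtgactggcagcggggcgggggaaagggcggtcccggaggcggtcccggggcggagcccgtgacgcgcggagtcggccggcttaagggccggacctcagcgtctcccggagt
LOX and BNIP3 were picked by their directions, so their windows cannot show whether cores go with a rise or a fall. A relation between cores and direction was not tested. A match is a description of these letters and not a binding site, and the absence of a core in the EGLN3 window says nothing of sites elsewhere in the gene.

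The libraries held 37046231 to 41516976 counts, with scaling factors between 0.99 and 1.01. SGI replicate 3 and DMSO replicate 1 stood apart from their groups: the chi-square per gene was 16.4 and 16.1 between SGI replicate 3 and the others of its group and 3.04 between those others, and it was 10.2 and 13.0 against 3.58 for DMSO replicate 1. Among the tested members, SGI replicate 3 was the highest SGI library for EPAS1, VEGFA, ANGPTL4, IGFBP3, LOXL2, NDRG1 and CITED2. The same held for ARNT, ARNT2, PLOD1, BNIP3, BHLHE40, BHLHE41, MXI1 and SPAG4. The other tested members were highest in SGI replicate 1 or 2. All 10 markers listed for the renal carcinoma line were at or above 10 CPM (counts scaled to library size) in every library, with summed levels of 8962 to 10727 CPM. The 6 markers of blood and endothelium summed to 0.201 to 0.667 CPM, and the 3 of 4 markers of other epithelia and muscle found in the table to 0.195 to 0.580 CPM. Levels of a gene across libraries are given below as normalized CPM, and levels of different genes are compared only as FPKM, which is scaled by gene length. A gene was called higher or lower at an adjusted p under 0.05 in edgeR's quasi-likelihood test, adjusted by Benjamini-Hochberg over all 12841 tested genes.

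Members were called in both directions with each treatment, and no test compared the counts between treatments. The members were chosen with earlier results of these data known, so shares unlike those of all genes may follow from the choice. With everolimus, 15 of the 36 tested members were higher than DMSO and 10 were lower (41.7% and 27.8%), where 27.2% and 29.2% of all tested genes were called in these directions. With SGI-1027, 22 were higher and 6 lower (61.1% and 16.7%, against 32% and 30.6% of all tested genes). With the combination, 19 were higher and 6 lower (52.8% and 16.7%, against 32.8% and 33.4%). The median log2 fold change of the members was 0.08, 0.25 and 0.29 in the same order, beside 0.00, 0.02 and 0.01 over all tested genes. These comparisons share the DMSO libraries. With upper-quartile scaling, which moved the share of higher genes among all called genes from 48.2% to 60.7% with everolimus, 19 members were higher and 8 lower in that comparison, beside 23 and 5 with SGI-1027 and 20 and 5 with the combination. Without both SGI replicate 3 and DMSO replicate 1, an alternative chosen after seeing the data, 16 were higher and 10 lower with everolimus, 22 and 6 with SGI-1027, and 21 and 8 with the combination.

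**Figure D1:**
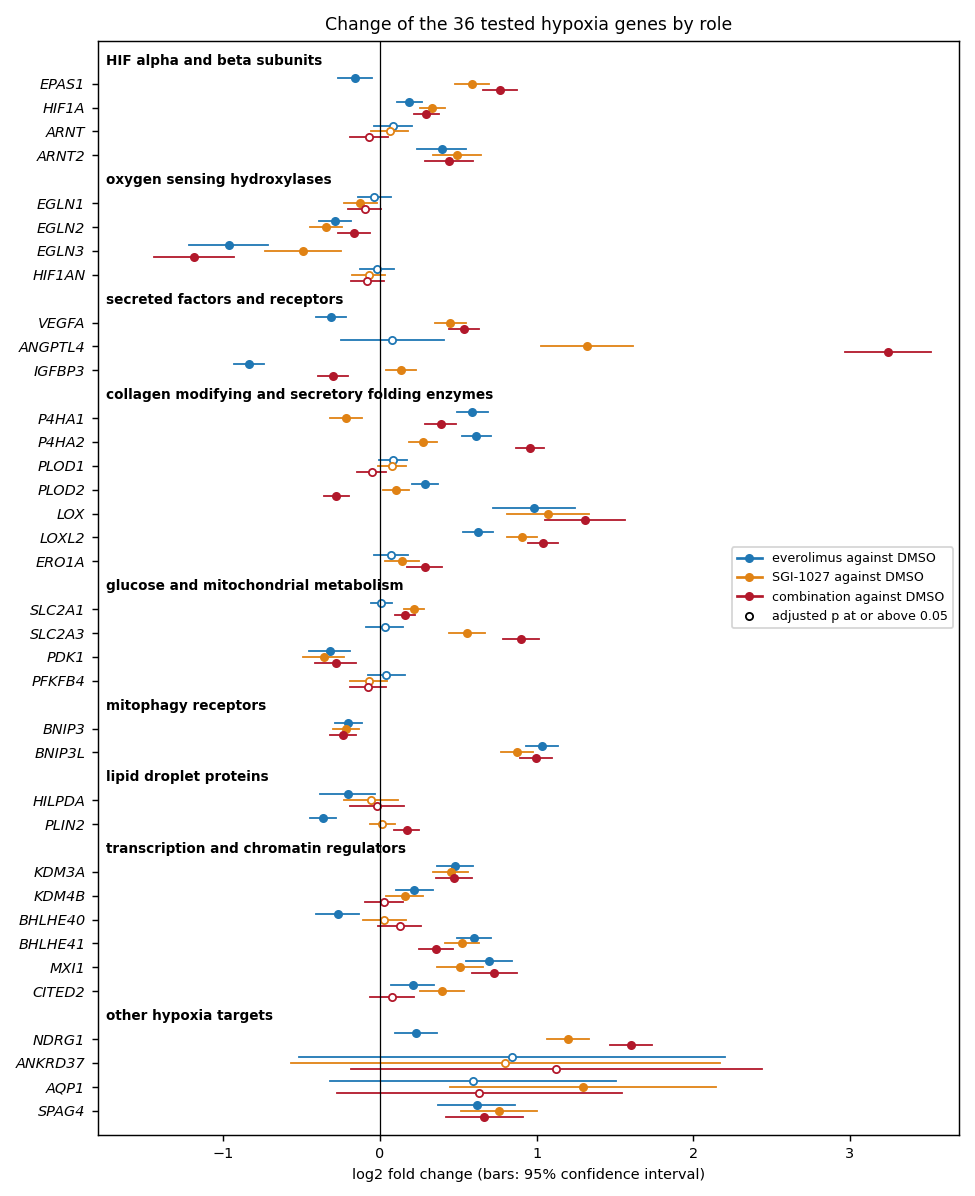
Log2 fold changes against DMSO (x axis) of the 36 tested members, grouped by role (y axis), with 95% confidence intervals as bars, for everolimus (blue), SGI-1027 (orange) and the combination (red); open points had an adjusted p at or above 0.05. ANGPTL4 with the combination lay farthest right at 3.24, EGLN3 lay on the left in all 3 comparisons, and EPAS1 and VEGFA changed side between everolimus and SGI-1027.

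By the direction of the calls, 11 members were higher in all 3 treated groups: HIF1A, ARNT2, P4HA2, LOX, LOXL2, BNIP3L, KDM3A, BHLHE41, MXI1, NDRG1 and SPAG4. They made up 30.6% of the tested members, and 20.2% of all tested genes had these calls. Another 4 members were lower in all 3 groups (EGLN2, EGLN3, PDK1 and BNIP3), which was 11.1% of the tested members, against 22.1% of all tested genes. ANGPTL4, ERO1A, SLC2A1 and SLC2A3 were higher with SGI-1027 and the combination but were not called with everolimus, except ERO1A and SLC2A1 with upper-quartile scaling (adjusted p = 0.0268 and 0.0328). These 4 were 11.1% of the tested members, against 6.14% of all tested genes with such calls. EPAS1 and VEGFA were lower with everolimus and higher with SGI-1027 and the combination (5.56%, against 0.444%). ARNT, HIF1AN, PLOD1, PFKFB4 and ANKRD37 were called in none of these comparisons (13.9%, against 20.5%).

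EPAS1, the gene of HIF2α, fell slightly with everolimus and rose by about 1.5 to 1.7 times with SGI-1027, alone or combined. It stood at 175, 168 and 165 CPM in the DMSO libraries, at 155, 146 and 154 CPM with everolimus, at 246, 239 and 279 CPM with SGI-1027 and at 279, 297 and 288 CPM with the combination. The everolimus libraries all lay below the DMSO libraries, and the libraries of the other treated groups lay above them and overlapped each other. The log2 fold change was −0.16 ± 0.05 (SE) with everolimus (adjusted p = 0.0122), 0.59 ± 0.05 with SGI-1027 (adjusted p = 1.4e-08) and 0.77 ± 0.05 with the combination (adjusted p = 2.8e-10). The fall with everolimus did not pass the test with upper-quartile scaling (adjusted p = 0.144) or without EVER replicate 2 (adjusted p = 0.0639). The combination lay above everolimus alone by 0.93 ± 0.05 (adjusted p = 7.3e-11) and above SGI-1027 alone by 0.18 ± 0.05 (adjusted p = 0.0175), although the last call was lost without SGI replicate 1, SGI replicate 2, COMB replicate 2 or COMB replicate 3 (adjusted p = 0.0748, 0.0953, 0.0829 and 0.0507).

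HIF1A, which encodes HIF1α, rose with each treatment and more evenly than EPAS1. Its 3 libraries read 244, 234 and 237 CPM in DMSO, 271, 271 and 273 CPM with everolimus, 305, 293 and 305 CPM with SGI-1027 and 300, 302 and 277 CPM with the combination. No treated library overlapped the DMSO libraries, and the combination overlapped SGI-1027. On the log2 scale the changes were 0.19 ± 0.04, 0.33 ± 0.04 and 0.30 ± 0.04 for everolimus, SGI-1027 and the combination (adjusted p = 0.000451, 6.1e-07 and 2.1e-06). Per length, HIF1A RNA was the more abundant of the α subunits in every library, at 56.7 ± 1.69 FPKM (SD, n = 3) in DMSO beside 30.9 ± 1.19 FPKM for EPAS1. The ratio of EPAS1 to HIF1A in FPKM was 0.535 to 0.551 in DMSO, 0.413 to 0.439 with everolimus, 0.619 to 0.704 with SGI-1027 and 0.714 to 0.798 with the combination, so that the ranges of the 4 groups did not overlap.

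The β subunits differed between themselves. ARNT stood at 52.1, 50.8 and 52.0 CPM in DMSO, 51.0, 56.9 and 56.2 CPM with everolimus, 51.6, 51.3 and 58.8 CPM with SGI-1027 and 50.4, 47.8 and 49.4 CPM with the combination. It passed the test against DMSO in no group, except with upper-quartile scaling for everolimus (adjusted p = 0.0222), with log2 fold changes of 0.08, 0.06 and −0.07 and a 95% confidence interval of −0.19 to 0.05 for the combination. ARNT2, its paralog, was higher in all 3 groups, by 0.39 ± 0.07, 0.49 ± 0.07 and 0.44 ± 0.07 on the log2 scale (adjusted p = 0.000191, 1.4e-05 and 3.9e-05), from a low DMSO level of 1.77 ± 0.03 FPKM.

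Among the oxygen-sensing hydroxylases, no member was called higher than DMSO in any group, where 27.2%, 32% and 32.8% of all tested genes were. EGLN3, the hypoxia-inducible prolyl hydroxylase PHD3, fell the most of all 36 tested members with everolimus and with the combination. It read 8.45, 9.18 and 8.56 CPM in DMSO, 4.32, 4.35 and 4.73 CPM with everolimus, 7.26, 5.31 and 6.002 CPM with SGI-1027 and 3.91, 3.46 and 4.13 CPM with the combination. Each treated group lay below DMSO without overlap, and the combination lay below SGI-1027. The log2 fold change was −0.97 ± 0.12 with everolimus (adjusted p = 1.8e-06), −0.49 ± 0.12 with SGI-1027 (adjusted p = 0.00114) and −1.19 ± 0.12 with the combination (adjusted p = 9.4e-08), which is 0.439 times the DMSO level. The combination and everolimus alone were not told apart for EGLN3 (difference −0.22 on the log2 scale, 95% confidence interval −0.49 to 0.05).

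EGLN1, the main prolyl hydroxylase of HIFα in most cells (PHD2), stayed close to its DMSO level. Its values were 55.5, 58.0 and 62.5 CPM in DMSO, 55.5, 57.7 and 58.3 CPM with everolimus, 54.9, 54.2 and 52.0 CPM with SGI-1027 and 56.2, 53.1 and 55.3 CPM with the combination. Only SGI-1027 gave a call among these comparisons, of −0.13 ± 0.05 (adjusted p = 0.0345), and it was lost with upper-quartile scaling (adjusted p = 0.218) and without DMSO replicate 2, DMSO replicate 3, SGI replicate 2 or SGI replicate 3 (adjusted p = 0.0598, 0.222, 0.0531 and 0.0936). The combination was called lower for EGLN1 without DMSO replicate 1 (adjusted p = 0.0324). EGLN2 (PHD1) read 56.3, 54.5 and 56.7 CPM in DMSO, 47.5, 44.2 and 45.5 CPM with everolimus, 43.6, 46.6 and 41.7 CPM with SGI-1027 and 50.2, 49.2 and 49.97 CPM with the combination. The 3 treated groups lay below DMSO, by −0.29, −0.34 and −0.17 on the log2 scale, and the combination lay between DMSO and the single drugs (the call for the combination was lost with upper-quartile scaling, adjusted p = 0.0604). HIF1AN, the asparagine hydroxylase, was called in no comparison with DMSO, with log2 fold changes of −0.02, −0.07 and −0.08, although the last was called without both SGI replicate 3 and DMSO replicate 1 (adjusted p = 0.0155).

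**Figure D2:**
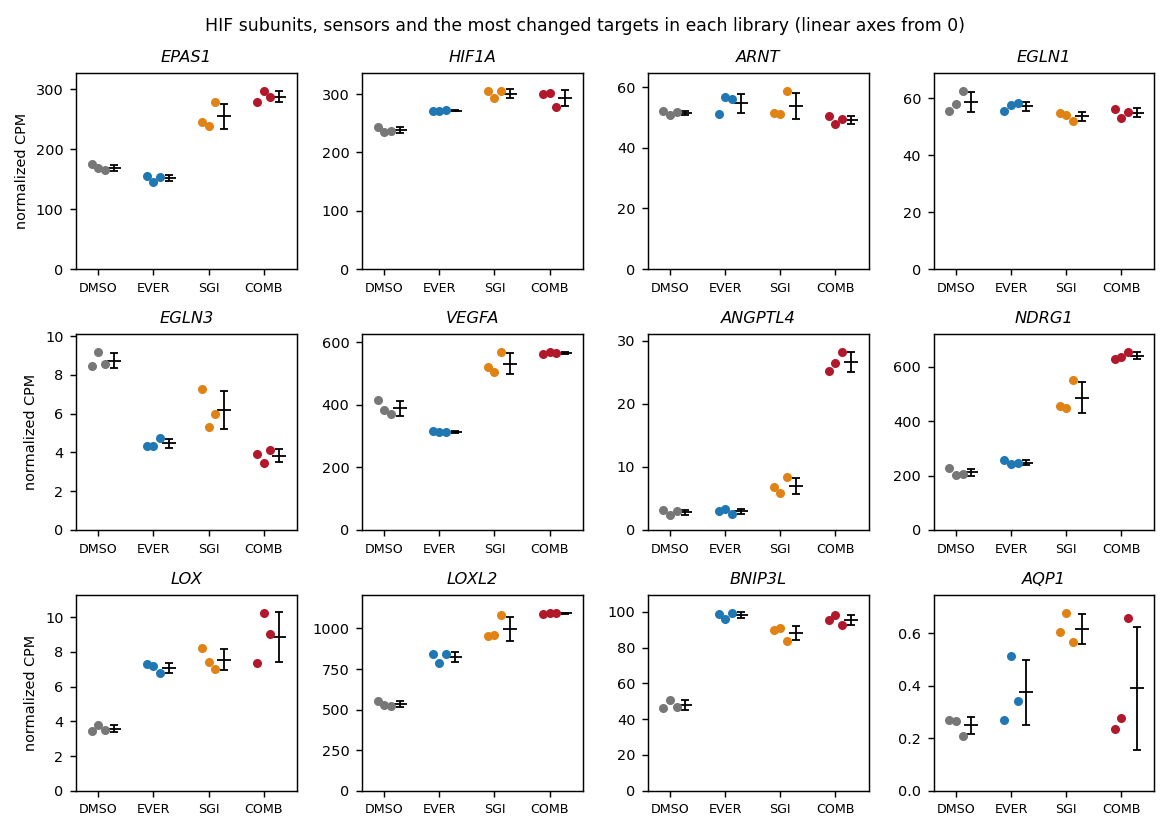
Normalized CPM (y axis, linear from 0) of 12 members in each of the 3 libraries of the 4 groups (x axis), with the group mean and SD in black beside the points. ANGPTL4 reached 25.1 to 28.2 CPM with the combination and stayed at or below 8.39 CPM in the other 9 libraries, while BNIP3L was raised to between 83.5 and 99.5 CPM in all treated libraries.

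Of the secreted factors, VEGFA and ANGPTL4 rose with SGI-1027 and the combination, while IGFBP3 fell with everolimus and the combination. VEGFA, the main angiogenic growth factor downstream of HIF, read 415, 383 and 369 CPM in DMSO, 315, 312 and 312 CPM with everolimus, 521, 504 and 568 CPM with SGI-1027 and 560, 568 and 564 CPM with the combination. Like EPAS1, it was below DMSO in all everolimus libraries and above DMSO in all libraries with SGI-1027. The log2 fold change was −0.31 ± 0.05, 0.45 ± 0.05 and 0.54 ± 0.05 (adjusted p = 1.4e-05, 1.3e-07 and 9.4e-09). The combination and SGI-1027 alone were not told apart (difference 0.09, 95% confidence interval −0.01 to 0.18), except without SGI replicate 3, the highest library of its group (adjusted p = 0.0196).

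ANGPTL4, a secreted inhibitor of lipoprotein lipase, showed the largest change of the set. It read 3.09, 2.38 and 2.98 CPM in DMSO, 3.05, 3.32 and 2.51 CPM with everolimus, 6.83, 5.82 and 8.39 CPM with SGI-1027 and 25.1, 26.5 and 28.2 CPM with the combination. Everolimus libraries overlapped the DMSO libraries, SGI-1027 libraries lay above both, and the combination lay far above all other libraries. The log2 fold change was 0.08 ± 0.16 with everolimus (95% confidence interval −0.25 to 0.41), 1.32 ± 0.14 with SGI-1027 (adjusted p = 2.2e-07) and 3.24 ± 0.13 with the combination (adjusted p = 2.7e-13), a 9.47-fold rise. The combination exceeded SGI-1027 alone by 3.79-fold (adjusted p = 3.3e-09). In FPKM, this took ANGPTL4 from 1.44 ± 0.20 in DMSO, rank 33 of the 39 members, to 13.8 ± 0.80.

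IGFBP3, a binding protein of insulin-like growth factors, had the highest FPKM of the set in DMSO (336 ± 8.44). Its DMSO range of 870 to 902 CPM fell to 478 to 524 CPM with everolimus, was 937 to 1034 CPM with SGI-1027 and was 688 to 762 CPM with the combination. The log2 fold changes of IGFBP3 were −0.84 ± 0.05, 0.14 ± 0.05 and −0.30 ± 0.05 (adjusted p = 8.1e-11, 0.0151 and 1.4e-05), and the small rise with SGI-1027 was lost without DMSO replicate 2 or SGI replicate 3 (adjusted p = 0.0553 and 0.0673). The receptors of the set were near zero. FLT1, a receptor of VEGFA, had 2 to 8 counts in a library, and CXCR4, a chemokine receptor, had 0 to 6, where a count of 0 allows a level of up to 0.0729 to 0.0813 CPM by counting error alone.

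Of the 7 members that hydroxylate or crosslink collagen or form disulfides in the secretory pathway, 5 were higher with everolimus and 0 lower. With SGI-1027 and again with the combination, 5 were higher and 1 lower. Of all tested genes, 27.2%, 32% and 32.8% were higher and 29.2%, 30.6% and 33.4% lower with the 3 treatments. The members that fell were P4HA1 with SGI-1027 and PLOD2 with the combination. Against everolimus, the combination was higher for 4 of the 7 and lower for 3, where 20.1% and 19.2% of all tested genes were called. LOX, which oxidizes lysines of collagen and elastin to allow crosslinks, read 3.43, 3.81 and 3.51 CPM in DMSO, 7.32, 7.18 and 6.77 CPM with everolimus, 8.22, 7.40 and 7.03 CPM with SGI-1027 and 7.37, 10.3 and 9.02 CPM with the combination. All 9 treated libraries lay above DMSO, with overlap among the treated groups. Its log2 fold changes were 0.98 ± 0.12, 1.07 ± 0.12 and 1.31 ± 0.12 (adjusted p = 2.5e-06, 6.1e-07 and 3.0e-08).

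LOXL2, a lysyl oxidase of the same family and the member with the third highest FPKM in DMSO, read 553, 526 and 519 CPM in DMSO, 840, 786 and 839 CPM with everolimus, 951, 960 and 1081 CPM with SGI-1027 and 1091, 1095 and 1097 CPM with the combination. The groups followed one another without overlap in that order. The changes on the log2 scale were 0.63 ± 0.05, 0.90 ± 0.05 and 1.04 ± 0.05 (adjusted p = 2.5e-09, 1.2e-11 and 9.8e-13). The step from SGI-1027 to the combination was 0.13 ± 0.05 (adjusted p = 0.0445), which passed the test neither with the replicate number as a block (adjusted p = 0.0512) nor without DMSO replicate 2, EVER replicate 1 or 3, SGI replicate 1 or 2 or any COMB replicate (adjusted p = 0.0523 to 0.177).

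P4HA1 and P4HA2 are α subunits of the collagen prolyl hydroxylase, and their responses to SGI-1027 differed in sign. P4HA1 had 58.0 to 63.9 CPM in DMSO, 91.7 to 92.5 CPM with everolimus, 50.5 to 55.6 CPM with SGI-1027 and 78.3 to 82.3 CPM with the combination, with log2 fold changes of 0.59, −0.22 and 0.39 (adjusted p = 9.0e-09, 0.00079 and 9.6e-07). P4HA2 rose with each drug, from 226 to 253 CPM in DMSO to 371 to 373 CPM with everolimus, 280 to 302 CPM with SGI-1027 and 460 to 486 CPM with the combination. Its log2 fold changes were 0.61, 0.27 and 0.96 (adjusted p = 1.9e-09, 2.7e-05 and 1.7e-12), and the combination lay above both single drugs (adjusted p = 4.4e-06 and 4.3e-09).

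The lysyl hydroxylase PLOD2 moved up with everolimus and down with the combination. Its range was 524 to 572 CPM in DMSO, 652 to 683 CPM with everolimus, 568 to 608 CPM with SGI-1027 and 443 to 463 CPM with the combination. The log2 fold change was 0.29 ± 0.04 with everolimus (adjusted p = 6.2e-06) and −0.28 ± 0.04 with the combination (adjusted p = 5.8e-06). The value with SGI-1027, 0.10 ± 0.04 (adjusted p = 0.0306), came from groups that overlapped, and DESeq2 did not call it (adjusted p = 0.0512), nor did the fits without DMSO replicate 1 or 2 or SGI replicate 1 or 2 (adjusted p = 0.0613 to 0.137). PLOD1, another lysyl hydroxylase, was called against DMSO in no group, except with upper-quartile scaling for both single drugs (adjusted p = 0.00393 and 0.0127) and without SGI replicate 3 for everolimus (adjusted p = 0.0362). For everolimus, PLOD1 was also called in the fit of the compared groups only (adjusted p = 0.034). The fit without both SGI replicate 3 and DMSO replicate 1 called it too (adjusted p = 0.00445). ERO1A, an oxidase that drives disulfide formation, was higher by 0.14 ± 0.05 with SGI-1027 (adjusted p = 0.024, in overlapping groups) and 0.28 ± 0.05 with the combination (adjusted p = 9.9e-05). The SGI-1027 call of ERO1A was lost without DMSO replicate 1 or 2 or SGI replicate 1 or 2 (adjusted p = 0.0508 to 0.141).

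The metabolic members split between transporters that rose and a kinase that fell. SLC2A3, a neuronal-type glucose transporter also induced by HIF, rose from 22.6 to 23.3 CPM in DMSO to 32.7 to 34.3 CPM with SGI-1027 and 42.2 to 44.2 CPM with the combination, while everolimus left it at 22.0 to 24.3 CPM. The log2 fold changes of SLC2A3 were 0.03, 0.55 and 0.90 (adjusted p = 0.676, 8.2e-08 and 7.3e-11), and some of its reads may belong to the near-identical SLC2A14. SLC2A1, the widely expressed glucose transporter with 221 ± 2.02 FPKM in DMSO, changed by 0.01, 0.22 and 0.16, of which the last pair passed the test (adjusted p = 9e-06 and 0.000208). PDK1, which inhibits pyruvate dehydrogenase, fell by 0.32, 0.36 and 0.28 on the log2 scale (adjusted p = 0.000282, 7.55e-05 and 0.000634). PFKFB4, a regulator of glycolytic flux, passed the test in none of the 3, and NDUFA4L2, a HIF target of the respiratory chain, had 0 to 3 counts in a library.

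BNIP3 and BNIP3L encode related mitophagy receptors on the outer mitochondrial membrane, and they moved in opposite directions with every treatment. BNIP3L read 46.1, 51.0 and 46.7 CPM in DMSO, 98.8, 96.2 and 99.5 CPM with everolimus, 89.7, 90.7 and 83.5 CPM with SGI-1027 and 95.4, 98.2 and 92.8 CPM with the combination. All treated libraries lay above DMSO, and the SGI-1027 libraries lay below the everolimus libraries. Its log2 fold changes were 1.03 ± 0.05, 0.88 ± 0.05 and 0.99 ± 0.05 (adjusted p = 1.2e-11, 4.1e-11 and 4.2e-12), and the combination did not pass the test against everolimus (difference −0.04, 95% confidence interval −0.14 to 0.06). SGI-1027 lay below everolimus for BNIP3L by −0.16 ± 0.05 (adjusted p = 0.0217), a call lost without EVER replicate 1, EVER replicate 3 or SGI replicate 3 (adjusted p = 0.0731, 0.0752 and 0.0775). BNIP3 went from 99.7 to 103 CPM in DMSO to 85.5 to 91.2 CPM with everolimus, 85.5 to 90.2 CPM with SGI-1027 and 85.0 to 88.3 CPM with the combination. The log2 fold changes of BNIP3 were −0.20, −0.22 and −0.24, each ± 0.04 (adjusted p = 0.000349, 0.000151 and 5.4e-05), with the limit that BNIP3 has pseudogene copies that can take or give reads.

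Of the proteins of lipid droplets, PLIN2, which coats the droplets and is abundant in clear cell carcinoma, fell with everolimus and rose with the combination. PLIN2 read 181, 185 and 192 CPM in DMSO, 147, 143 and 143 CPM with everolimus, 193, 190 and 179 CPM with SGI-1027 and 208, 210 and 210 CPM with the combination. The SGI-1027 libraries overlapped DMSO, and the other treated groups did not. In log2 terms the changes were −0.36 ± 0.04, 0.01 ± 0.04 and 0.17 ± 0.04 (adjusted p = 2.5e-07, 0.763 and 0.000648). HILPDA, an inhibitor of lipid droplet breakdown, was lower with everolimus by 0.21 ± 0.08 (adjusted p = 0.0449), a call lost with upper-quartile scaling (adjusted p = 0.196) and without any of 7 single libraries, DMSO replicates 2 and 3, EVER replicates 1, 2 and 3, SGI replicate 2 and COMB replicate 3 (adjusted p = 0.0509 to 0.153).

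Among the regulators of transcription and chromatin, 5 of 6 members were higher with everolimus, 5 of 6 with SGI-1027 and 3 of 6 with the combination, where 27.2%, 32% and 32.8% of all tested genes were. MXI1, an antagonist of MYC, rose by 0.70, 0.51 and 0.73 on the log2 scale (adjusted p = 1.3e-07, 4.8e-06 and 3.5e-08), and the histone demethylase gene KDM3A by 0.48, 0.45 and 0.47 (adjusted p = 7.4e-07, 1.1e-06 and 4.7e-07). KDM4B, a demethylase of the same superfamily, rose by 0.22 and 0.16 with the single drugs (adjusted p = 0.00306 and 0.0218) and had a log2 fold change of 0.02 with the combination. CITED2, which competes with HIFα for its coactivators, rose by 0.21 and 0.40 with the single drugs (adjusted p = 0.0126 and 4.9e-05) and had a log2 fold change of 0.08 with the combination, called without DMSO replicate 1 (adjusted p = 0.0356). Single libraries decided the weaker of these calls: KDM4B with SGI-1027 was lost without DMSO replicate 2 or SGI replicate 2 (adjusted p = 0.102 and 0.0665), and CITED2 with everolimus without DMSO replicate 2, DMSO replicate 3 or EVER replicate 1 (adjusted p = 0.0703, 0.0529 and 0.0536).

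BHLHE41 and BHLHE40 are paralogous repressors of the circadian clock and HIF targets. BHLHE41 read 73.6, 65.7 and 69.6 CPM in DMSO, 109, 107 and 101 CPM with everolimus, 97.7, 95.4 and 107 CPM with SGI-1027 and 88.6, 91.2 and 87.9 CPM with the combination. All treated libraries were above DMSO, and the combination was the lowest of the 3 treated groups. On the log2 scale the changes were 0.60 ± 0.05, 0.52 ± 0.05 and 0.36 ± 0.05 (adjusted p = 2.0e-08, 7.8e-08 and 6.9e-06). BHLHE40 changed by −0.27 ± 0.06 with everolimus (adjusted p = 0.00179), and by 0.03 and 0.12 with SGI-1027 and the combination. The last value was called without DMSO replicate 1 or SGI replicate 3 (adjusted p = 0.0157 and 0.0114) and with upper-quartile scaling (adjusted p = 0.0177).

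NDRG1, a cytoplasmic stress-response protein and a common hypoxia marker, read 226, 201 and 206 CPM in DMSO, 257, 241 and 245 CPM with everolimus, 456, 449 and 552 CPM with SGI-1027 and 630, 637 and 655 CPM with the combination. The groups rose in this order without overlap. Its log2 fold changes were 0.23 ± 0.06, 1.20 ± 0.06 and 1.6002 ± 0.06 (adjusted p = 0.00455, 2.0e-11 and 2.5e-13), and the combination was 3.03 times the DMSO level. SPAG4, a nuclear envelope protein, was higher in the 3 groups by 0.62, 0.76 and 0.67 (adjusted p = 0.0002, 1.6e-05 and 6.1e-05).

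AQP1, a water channel of the proximal tubule, was barely detected, at 0.268, 0.267 and 0.209 CPM in DMSO, 0.270, 0.513 and 0.340 CPM with everolimus, 0.605, 0.677 and 0.564 CPM with SGI-1027 and 0.234, 0.276 and 0.657 CPM with the combination. These are 8 to 25 counts in a library. SGI-1027 gave a log2 fold change of 1.30 ± 0.40 (adjusted p = 0.00965), and the 3 combination libraries did not lie together. Without COMB replicate 3, AQP1 lay below the sum of the single drugs in the interaction (−1.85, adjusted p = 0.0116). ANKRD37, a HIF-induced ankyrin repeat protein, had 2 to 16 counts in a library, and its confidence interval for the combination, −0.18 to 2.44, leaves its direction unresolved at this depth.

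The study's own cut-off, an unadjusted p under 0.05 and a log2 fold change of 1 or more in either direction, left fewer members. With everolimus it kept BNIP3L alone, 2.78% of the tested members where 4.79% of all tested genes passed. With SGI-1027 it kept ANGPTL4, LOX, NDRG1 and AQP1 (11.1%, against 7.33%). With the combination it kept ANGPTL4, LOX, LOXL2 and NDRG1 as higher and EGLN3 as lower (13.9%, against 9.96%). LOX and EGLN3 with everolimus lay just outside it at 0.98 and −0.97, and BNIP3L just inside it at 1.03, and without EVER replicate 3 or DMSO replicate 2 the everolimus count became 3 or 2.

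The combination was then set against each single drug. Against everolimus, 14 members were higher and 6 lower, 38.9% and 16.7% of those tested, where 20.1% and 19.2% of all tested genes were called. Against SGI-1027, 10 were higher and 6 lower (27.8% and 16.7%, against 9.4% and 10.2%). ANGPTL4, EPAS1, LOXL2, NDRG1, P4HA2, PLIN2 and SLC2A3 lay above both single drugs, and BHLHE41, PLOD1 and PLOD2 below both. The share of all tested genes above or below both was not computed. Of these 10 members, ANGPTL4, NDRG1, P4HA2, PLIN2, SLC2A3 and PLOD2 kept both calls without any single library. For PLOD1 and BHLHE41 the call against SGI-1027 (adjusted p = 0.0439 and 0.0291) was lost without SGI replicate 3 (adjusted p = 0.19 and 0.11) and without each combination library (adjusted p = 0.0562 to 0.161). PLOD1 also lost it without DMSO replicate 2 or any EVER replicate (adjusted p = 0.0566 to 0.0628), and its call against everolimus without EVER replicate 1 or COMB replicate 1 or 2 (adjusted p = 0.0617 to 0.0833). SGI-1027 differed from everolimus in 16 members, with 12 higher and 4 lower (33.3% and 11.1%, against 13% and 9.51%). ANGPTL4 was higher with SGI-1027 by 1.24 (adjusted p = 3.2e-06). EPAS1, VEGFA, IGFBP3 and NDRG1 were higher by 0.75, 0.76, 0.97 and 0.97, and P4HA1 was lower by −0.81 (adjusted p = 4.4e-09, 8.7e-10, 3.3e-11, 2.2e-09 and 6.2e-10).

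An interaction contrast measured how far the combination departed from the added log2 changes of everolimus and SGI-1027. It passed the test for 24 members, where 45.6% of all tested genes passed, with 10 members above the sum and 14 below it (27.8% and 38.9%, against 23.6% and 22.1% of all tested genes). Of the 11 members called higher in all 3 treated groups, 9 lay below the sum (81.8%, against 67.6% of all tested genes with those calls). Of the 4 members called lower in all 3 groups, 3 lay above the sum (75%, against 72.2% of all tested genes with those calls). ANGPTL4 had the largest positive value, 1.84 ± 0.20 (adjusted p = 6.7e-07), followed by PLIN2 at 0.52 ± 0.05 (adjusted p = 4.7e-07) and EGLN2 at 0.47 ± 0.07 (adjusted p = 3.1e-05). EGLN2 was lower than DMSO in all 3 treated groups, so its positive value marks a fall smaller than the added falls. Among members that passed, BNIP3L had the lowest, −0.92 ± 0.07 (adjusted p = 8.9e-09), followed by BHLHE41 at −0.77 ± 0.07 (adjusted p = 1.6e-07) and LOX at −0.75 ± 0.17 (adjusted p = 0.00144). AQP1, at few counts, had −1.26 ± 0.57 and did not pass (adjusted p = 0.083).

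The interaction and the single-drug changes share the DMSO libraries. ANGPTL4, EPAS1, VEGFA and SLC2A3 rose with SGI-1027 and also lay above the sum (interactions of 1.84, 0.34, 0.40 and 0.32), as the plot of the combination against the sum shows. IGFBP3 met the same conditions, with a small rise of 0.14 and an interaction of 0.40, but was lower than DMSO with the combination (−0.30). For VEGFA, everolimus alone gave −0.31, and the combination was not told apart from SGI-1027 alone (0.09, adjusted p = 0.205). The values for EPAS1 were −0.16 and 0.18. The positive interactions of VEGFA and EPAS1 therefore include a fall with everolimus alone that was not seen beside SGI-1027. NDRG1 lay close to the sum (0.17 ± 0.09, adjusted p = 0.127), but above it without SGI replicate 3 (0.27, adjusted p = 0.000595).

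**Figure D3:**
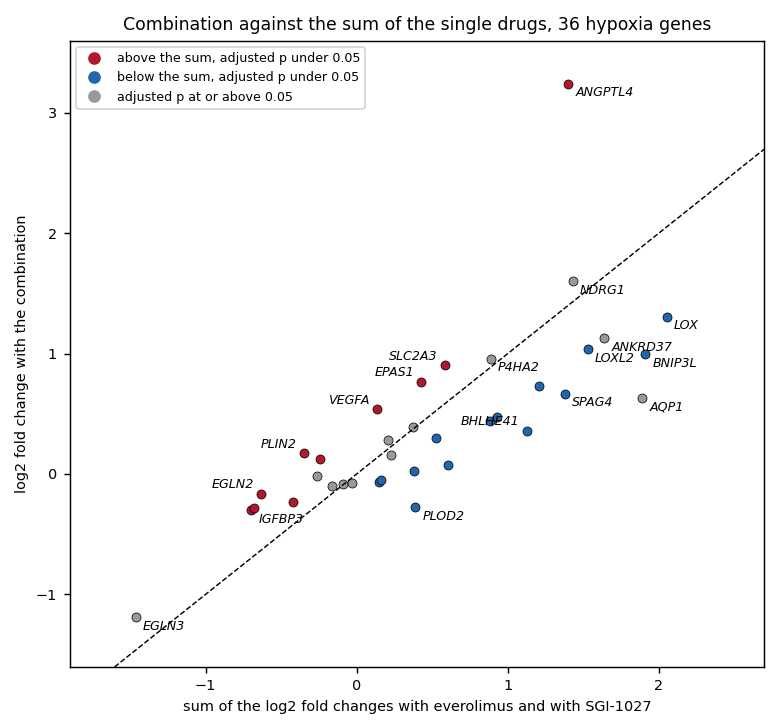
Log2 fold change with the combination (y axis) against the sum of the log2 fold changes with everolimus and SGI-1027 (x axis) for the 36 tested members; the dashed line marks equality, red and blue points lay above and below it at an adjusted p under 0.05, and grey points did not pass. ANGPTL4 lay 1.84 above the line and BNIP3L 0.92 below it (interaction −0.92).

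Other genes of the HIF pathway outside the 39 were counted in 4 further lists, beside which stand the 32.8% of all tested genes called higher and the 33.4% called lower with the combination. The lists were typed by hand with earlier results of these data known, so shares unlike those of all genes may follow from the choice. Of 15 tested genes of HIF degradation, cofactors and modifiers, 4 were higher and 8 lower with the combination (26.7% and 53.3%), with a median log2 fold change of −0.26 (3 and 7 with everolimus, 3 and 8 with SGI-1027). VHL RNA, which these cells transcribe although its product is not functional, was 55.8 ± 2.04 CPM in DMSO and 67.7 ± 2.61 CPM with the combination (log2 fold change 0.28 ± 0.06, adjusted p = 0.000848). USP20, a deubiquitinase of HIF1α, had the highest value (0.53, adjusted p = 4.2e-05). HSP90AA1 and HSP90AB1, the HSP90 chaperones that stabilize HIFα, had the lowest, at −1.19 and −0.79 (adjusted p = 3.0e-14 and 3.0e-13), and as close paralogs they may exchange reads.

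Of 20 glycolysis and acid export targets, 2 were higher and 14 lower with the combination (10% and 70%, against 32.8% and 33.4% of all tested genes), and the median was −0.30. With everolimus 2 were higher and 12 lower, and with SGI-1027 2 were higher and 14 lower (all tested genes 27.2% and 29.2%, and 32% and 30.6%). ENO2, an enolase isoform, rose by 1.24 (adjusted p = 1.0e-13), and PFKL, the liver-type phosphofructokinase, rose by 0.24 (adjusted p = 5.7e-05). CA12, a membrane carbonic anhydrase and marker of the line, went from 115 ± 4.13 CPM in DMSO to 64.8 ± 2.66, 57.8 ± 4.08 and 68.5 ± 1.74 CPM in the treated groups (log2 fold change with the combination −0.74, adjusted p = 5.0e-10). PGAM1, a phosphoglycerate mutase, changed by −0.73 with the combination (adjusted p = 2.0e-12).

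Of 18 tested targets among growth factor, matrix and cell cycle genes, 12 were higher and 2 lower with the combination (66.7% and 11.1%, against 32.8% and 33.4%), with a median of 0.36 (8 and 5 with everolimus, 13 and 3 with SGI-1027). CCND1, the cyclin D1 gene and a known HIF2 target in renal carcinoma cells, was named in addition to the highest and lowest changes. It went from 329 ± 7.14 CPM in DMSO to 248 ± 6.38 CPM with everolimus, 466 ± 8.06 CPM with SGI-1027 and 661 ± 17.1 CPM with the combination. Its log2 fold changes were −0.41, 0.50 and 1.01 (adjusted p = 2.5e-08, 1.0e-09 and 5.4e-14), with an interaction of 0.92 (adjusted p = 2.7e-10). The same directions were called for EPAS1 and VEGFA, while 11 members were higher and 4 lower in all 3 treated groups. A part of HIF2 in the CCND1 changes was not tested. EDN1, the endothelin 1 precursor, rose by 1.51 with the combination (adjusted p = 7.1e-11). The amino acid transporter gene SLC7A5 changed by −0.28 (adjusted p = 2.6e-05), and MET, a receptor tyrosine kinase gene, by −0.08 in overlapping groups, at the edge of the threshold.

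Of 22 tested genes in the list of other shared hypoxia targets, 12 were higher and 10 lower with the combination (54.5% and 45.5%, against 32.8% and 33.4%), with a median of 0.33 (11 and 9 with everolimus, 12 and 8 with SGI-1027). MAFF, a small MAF factor, rose from 7.85 ± 0.0651 CPM in DMSO to 37.2 ± 1.35 CPM with the combination (log2 fold change 2.25, adjusted p = 3.5e-14), and PPP1R3B, a glycogen-targeting phosphatase subunit, rose by 1.97 (adjusted p = 2.1e-15). ISM1, a secreted protein, and GBE1, the glycogen branching enzyme, changed by −1.24 and −0.81 (adjusted p = 4.8e-08 and 3.7e-10). All 4 lists thus held genes that moved in both directions.

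**Figure D4:**
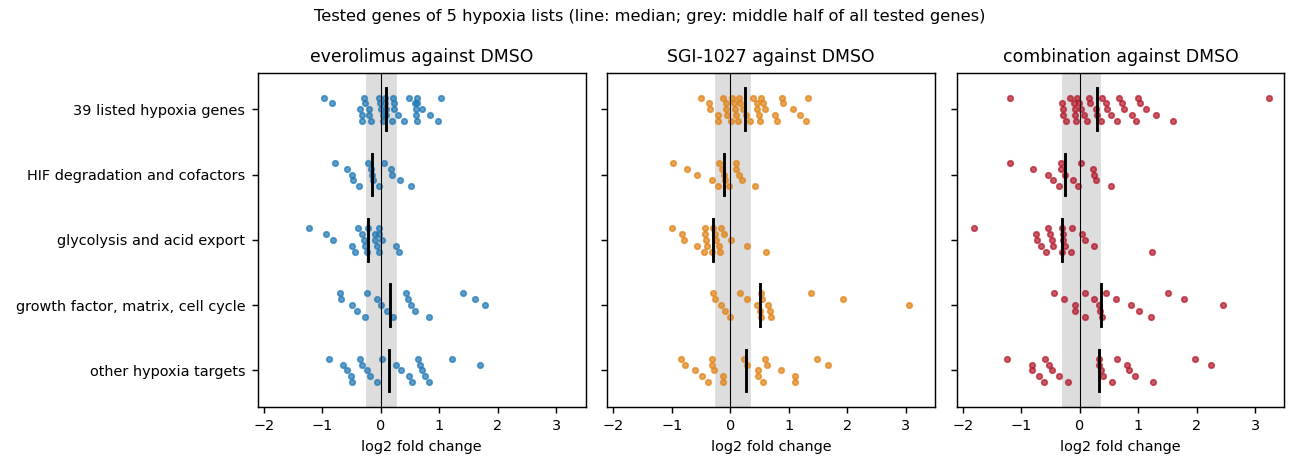
Log2 fold changes against DMSO (x axis) of the tested genes of the 39-gene set and the 4 further lists (y axis) with everolimus, SGI-1027 and the combination; points are genes, black lines list medians, and grey bands the middle 50% of all tested genes. The glycolysis and acid export list had a median of −0.30 with the combination, and the growth factor, matrix and cell cycle list one of 0.36.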

How the data were processed

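Bulk RNA-seq of 12 libraries in 4 groups was used. The deposited tables hold unnormalized counts by gene symbol and FPKM values, which the authors scaled for gene length and library size, in each library. The aligner, counter, annotation and strand setting are not given in the sources used here. The submitters' processing notes name mouse builds (GRCm38, mm10), although the symbols are human, so no coordinates were taken from the tables. The paper describes TRIzol extraction and stranded TruSeq libraries, whereas the sample records name RNeasy and SMARTER kits. Overlapping and antisense genes are therefore uncertain.

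Counts were analysed with edgeR 4.0.16 in R 4.3.3 (filterByExpr, TMM factors, 1 quasi-likelihood fit over all 12 libraries, prior count 0.125), with 7 contrasts. P-values were adjusted by Benjamini-Hochberg over all 12841 tested genes. Limits for a count of 0 cover counting error only. Errors are SD of CPM or FPKM and SE of log2 fold changes. Same-numbered libraries did not deviate together (r of −0.176 to 0.0358 over 18 pairs), so numbers were not used as pairs.

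The members and lists were chosen with earlier results of these data known, and the wider lists were typed by hand. Per-library values were given for EPAS1, HIF1A, ARNT, EGLN1, EGLN3 and VEGFA, for members past the study's cut-off against DMSO, and for the 3 highest and 3 lowest interactions. From each wider list the 2 highest and 2 lowest log2 fold changes with the combination were named (adjusted p under 0.05, mean of at least 50 counts), plus VHL and CCND1; 1 gene that the rule names is not reported here. Promoter windows came from RefSeq. The procedure was tested on simulated data for everolimus against DMSO, where 197 of 200 altered genes among 12555 were recovered with 13 false calls. The altered genes changed equally often up and down, by a log2 fold change of 1 or more in either direction. Smaller changes were not simulated, nor was a case in which as many genes changed as were called in these data. Alternatives were DESeq2 1.42.0, RLE and upper-quartile factors, other filters, the replicate number as a block, fits of the compared groups only, limma 3.58.1 on log2(FPKM + 1) and log2(FPKM + 0.1), leaving out each library, and, chosen after seeing the data, leaving out the pair that stood apart.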

Additional observations from a re-analysis of the deposited data

Results flagged for a closer look

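The interaction contrast tests whether the effect of one drug differed in the presence of the other, and 24 of the 36 tested members passed it in edgeR's quasi-likelihood test (adjusted p under 0.05), where 45.6% of all tested genes did. The combination lay above the added log2 changes of the single drugs for ANGPTL4 (1.84), PLIN2 (0.52), EGLN2 (0.47), VEGFA (0.40), IGFBP3 (0.40), PDK1 (0.40), BHLHE40 (0.37), EPAS1 (0.34), SLC2A3 (0.32) and BNIP3 (0.18). It lay below the sum for PLOD1 (−0.21), ARNT (−0.21), HIF1A (−0.23), KDM4B (−0.35), ARNT2 (−0.44), KDM3A (−0.45), MXI1 (−0.47), LOXL2 (−0.49), CITED2 (−0.53), PLOD2 (−0.67), SPAG4 (−0.71), LOX (−0.75), BHLHE41 (−0.77) and BNIP3L (−0.92). Of the 11 members called higher in all 3 treated groups, 9 lay below the sum (81.8%, against 67.6% of all tested genes with those calls). EGLN2, PDK1 and BNIP3 were lower than DMSO in all 3 treated groups, so their positive values mark falls smaller than the added falls. VEGFA, EPAS1, PLIN2 and BHLHE40 were lower than DMSO with everolimus alone, but with the combination were not called lower than SGI-1027 alone. Their positive values measure this difference. The part of cell death, which the paper reports for the drugs together, was not tested for any of these values. The treatment protocol gives 10 µM everolimus for the single drug and 5 µM in the combination, against 5 µM for both in the treatment labels and the study's methods, and the part of dose in these values was not tested. BNIP3 did not pass with upper-quartile factors (adjusted p = 0.123), and ARNT did not pass without 7 of the 12 single libraries: DMSO replicates 2 and 3, EVER replicates 2 and 3, SGI replicate 3 and COMB replicates 2 and 3 (adjusted p = 0.0543 to 0.102). ARNT was also lost with no filter on low counts (adjusted p = 0.055) and with limma on log2(FPKM + 1) and log2(FPKM + 0.1) (adjusted p = 0.076 and 0.073).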

How the results depend on the processing

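No called change of a member reversed in any comparison or alternative run. The numbers of members higher and lower in the 7 contrasts stayed within 1.5 times the reported count in every alternative. Members past the study's fold cut-off with everolimus numbered 1, against 2 with upper-quartile factors, 2 with no filter on low counts and 0 with limma on log2(FPKM + 1). With SGI-1027 they numbered 4, against 1 on log2(FPKM + 1) and 2 on log2(FPKM + 0.1), and with the combination 5, against 3 on log2(FPKM + 1). A pseudocount shrinks the fold change of low genes by construction. Leaving out each library in turn gave 1 to 3 members past the cut-off with everolimus (2 without DMSO replicate 2, 3 without EVER replicate 3), 4 to 4 with SGI-1027 and 5 to 7 with the combination, and at the adjusted threshold 14 to 16 higher and 8 to 10 lower with everolimus, 18 to 22 and 5 to 6 with SGI-1027, and 19 to 21 and 6 to 7 with the combination. The replicate block, on numbers that do not pair the libraries, left 15 higher and 10 lower with everolimus, 22 and 5 with SGI-1027 and 19 and 6 with the combination; it lost 3 calls in all 7 contrasts, EGLN1 with SGI-1027 (adjusted p = 0.0504) and PLOD1 and LOXL2 between the combination and SGI-1027 (adjusted p = 0.0641 and 0.0512), and changed no other call. Upper-quartile factors moved the median of all genes by at most 0.074 on the log2 scale, lost 6 calls of members and added 8. Over all contrasts, leaving out a library lost 89 calls of members, added 28 and left 2907 values on their side of the threshold. Leaving out SGI replicate 3 and DMSO replicate 1 together, chosen after seeing the data, added 15 calls and lost 2, PLOD1 between the combination and SGI-1027 (adjusted p = 0.0796) and the ARNT interaction (adjusted p = 0.0644). The interaction was not run in fits of the compared groups only, since it needs all 4 groups. At these depths AQP1, ANKRD37 and the 3 untested members rest on at most 25 counts in a library, and small differences there were not detectable.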
